A study of Mus musculus with 3 samples.

Results

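Sebocyte-like lipid-rich epithelial cells made up 611 of 6022 cells kept from the dermis of mouse abdominal skin. Barcodes needed 200 or more detected genes and no more than 10% of their UMIs from mitochondrial genes, a UMI being a unique molecular identifier that marks 1 captured RNA molecule. A kept cell was counted as sebocyte-like when at least 3 of the 5 genes Bex1, Psph, Cers4, Ermp1 and Cyp1a1 each had a UMI. In addition, the fibroblast genes Col1a1, Col1a2, Col3a1, Dcn and Lum had to stay under 1% of its UMIs, and the cornified envelope genes Lor, Flg2, Asprv1 and Cnfn under 0.5%. The rule thus read measured values, and levels of its own genes are given as a description only. They numbered 103 of 1289 kept cells in the NP library, 403 of 3652 in dpc16 and 105 of 1081 in dpp42.

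The mice were C57BL/6, aged 8 to 12 weeks, and all carried Col1a2creERT2, a tamoxifen-activated recombinase driven by a collagen promoter, and the R26H2B EGFP reporter. The NP library came from non-pregnant skin taken 48 days after a 3-day tamoxifen treatment. The dpc16 library was made at gestation day 16 and the dpp42 library on postpartum day 42, both with tamoxifen during pregnancy. Each stage was 1 library of 10x Chromium 3′ counts, and the number of mice behind a library is not given in the sources used here. For NP, dpc16 and dpp42 the files held 1330, 4122 and 1196 barcodes, and the 1289, 3652 and 1081 kept stand beside 1289, 3650 and 1081 cells stated by the study. With 1 library per stage there are no replicates and no tests: all intervals are 95% intervals that cover counting error only, and mouse, stage, tamoxifen timing and library cannot be told apart. The sebocyte-like cells held 698726 UMIs in NP, 3391602 in dpc16 and 807788 in dpp42, at medians of 6392, 8085 and 7546 UMIs per cell. Barcode sequences shared between libraries numbered 7 for NP and dpc16, 2 for NP and dpp42 and 4 for dpc16 and dpp42, none of them in a sebocyte-like cell of both.

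Sebocytes are the epithelial cells of the sebaceous gland, which opens into the hair follicle. They start as dividing cells at the rim of the gland, fill with lipid droplets as they mature, and finally burst to release sebum, a mix of triglycerides, wax esters and sterol esters that coats hair and skin. Androgens and other steroid hormones are known to act on the gland, and the transcription factor PPARγ is known to direct sebocyte maturation.

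Of the 5 genes of the rule, Psph encodes the last enzyme of serine synthesis (chromosome 5, 129765558 to 129787449, minus strand), and Cers4 a ceramide synthase (chromosome 8, 4493026 to 4531680, plus strand). Ermp1 encodes a peptidase of the endoplasmic reticulum (chromosome 19, 29608214 to 29648415, minus strand). Bex1 encodes a small adaptor protein first found in brain (chromosome X, 136213972 to 136215513, minus strand). Cyp1a1 encodes a cytochrome P450 that the aryl hydrocarbon receptor is known to induce (chromosome 9, 57687928 to 57703824, plus strand). Coordinates are of GRCm38 in GENCODE M21. The promoters of Cyp1a1 and Bex1 are shown because these 2 genes of the rule differed most between dpc16 and the other libraries. Each runs, 5′ to 3′, from 250 bases before to 50 bases after the start site in RefSeq, build GRCm38.p6, and capitals mark GCGTG, the core letters of the site bound by the aryl hydrocarbon receptor, or its reverse complement. Cyp1a1 has the window chr9:57697363-57697662 on the plus strand, with the match starting 54 bases before the start site. Bex1 has the window chrX:136215464-136215763 on the minus strand.
Cyp1a1: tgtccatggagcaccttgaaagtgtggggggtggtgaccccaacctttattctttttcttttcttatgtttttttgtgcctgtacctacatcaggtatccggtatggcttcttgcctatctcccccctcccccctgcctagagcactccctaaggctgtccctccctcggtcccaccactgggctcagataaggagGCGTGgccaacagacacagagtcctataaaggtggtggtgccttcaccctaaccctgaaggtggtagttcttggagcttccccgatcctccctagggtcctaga
Bex1: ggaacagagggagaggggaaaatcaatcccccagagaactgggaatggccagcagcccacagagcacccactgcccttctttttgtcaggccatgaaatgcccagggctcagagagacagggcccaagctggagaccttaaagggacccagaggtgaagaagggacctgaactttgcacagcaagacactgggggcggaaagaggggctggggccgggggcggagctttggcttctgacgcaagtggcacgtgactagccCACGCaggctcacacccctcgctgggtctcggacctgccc
Each held 1 match. GCGTG on either strand stood in 32.4% of the 32851 promoters of this length, and a match describes the letters alone.

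The label was first held against markers. Cells with keratins (Krt1, Krt5, Krt10, Krt14, Krt15, Krt17 and Krt79 together at least 1% of UMIs) that were not sebocyte-like, collagen-rich or envelope-rich served as the other epithelial cells, 788 in NP, 1268 in dpc16 and 496 in dpp42. Over all genes measured in the 3 libraries, 425 of 2509 (16.9%) were at least 2-fold higher in the sebocyte-like cells in each library, and 366 (14.6%) at least 2-fold lower. Of 12 measured genes of a textbook sebocyte list, 11 were at least 2-fold higher in each library. Because the cells were chosen by their RNA, this describes the choice and is no test of it.

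Lipid genes led the difference. Scd1, the desaturase that makes monounsaturated fatty acids, stood at 10601 UMIs per 1000000 (CPM) in NP, 5689.6 in dpc16 and 13032 in dpp42, against 232, 123 and 237 CPM in other epithelial cells. Mgst1, a microsomal glutathione transferase, stood at 6340.1, 5222 and 6247 CPM, against 58.0, 156 and 88.4. Plin2, the coat protein of lipid droplets, stood at 1614, 1699.8 and 1727 CPM, against 34.5, 73.3 and 24.7. All 3 were thus far above the other epithelial cells in every library. The 20 genes with the largest smallest ratio included Soat1 and Far2, which esterify sterols and reduce fatty acids to the alcohols of wax. They also held Fa2h, which hydroxylates fatty acids, the droplet protein gene Cidea, the elongases Elovl3 and Elovl6 and the acetyl-CoA carboxylase Acacb. For Soat1 the log2 ratio to other epithelial cells was 7.86 in NP, 7.24 in dpc16 and 7.47 in dpp42. For Far2 it was 7.44, 7.05 and 7.40, and for Cidea 7.88, 6.94 and 7.78. Among the rest of the 20 were Acoxl, the rule gene Cers4, Serpina3j, Carns1, Ces1d, Clstn3, Lpl, Cyp2g1, Scd1, Lhpp, Clmp and Paqr7.

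By gene group, all 14 measured peroxisome genes, 17 of 20 sterol synthesis genes and 21 of 23 sebaceous lipid genes were at least 2-fold higher in each library, beside 16.9% of all genes. Of the 13 measured lipid droplet and fatty acid uptake genes, 10 were. Spinous keratinocyte genes such as Krt10 and Krtdap were the opposite, 6 of 6 being at least 2-fold lower, as were 6 of 7 basal keratinocyte genes such as Krt15. Krt79, a keratin of the gland and its duct, stood at 1048, 1192 and 1205 CPM, against 241, 824 and 298 in other epithelial cells.

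Markers of other lipid-bearing or glandular cells were scarce. Summed over 11 adipocyte genes the level was 84.4, 135 and 106 CPM, where 9, 5 and 8 of the 11 were at 0 UMIs. Of 12 mammary luminal genes, 9, 8 and 9 were at 0, the prolactin receptor gene Prlr being the main source of their sum of 368, 349 and 347 CPM. The 7 fibroblast genes summed to 119, 405 and 165 CPM in the sebocyte-like cells, against 72354, 115799 and 66052 in cells with at least 1% collagen UMIs, and were thus a small part of the RNA, though higher in dpc16 than in NP. EGFP, the reporter that the collagen-driven recombinase switches on, was found in 0 of 103, 6 of 403 and 2 of 105 sebocyte-like cells. It stood at 46.1, 1.34 and 59.5 CPM in collagen-rich cells, so it was rare in dpc16 there too. Macrophage genes summed to 4.29, 37.2 and 2.48 CPM, and Langerhans and dendritic cell genes to 27.2, 241 and 22.3.

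**Figure D1:**
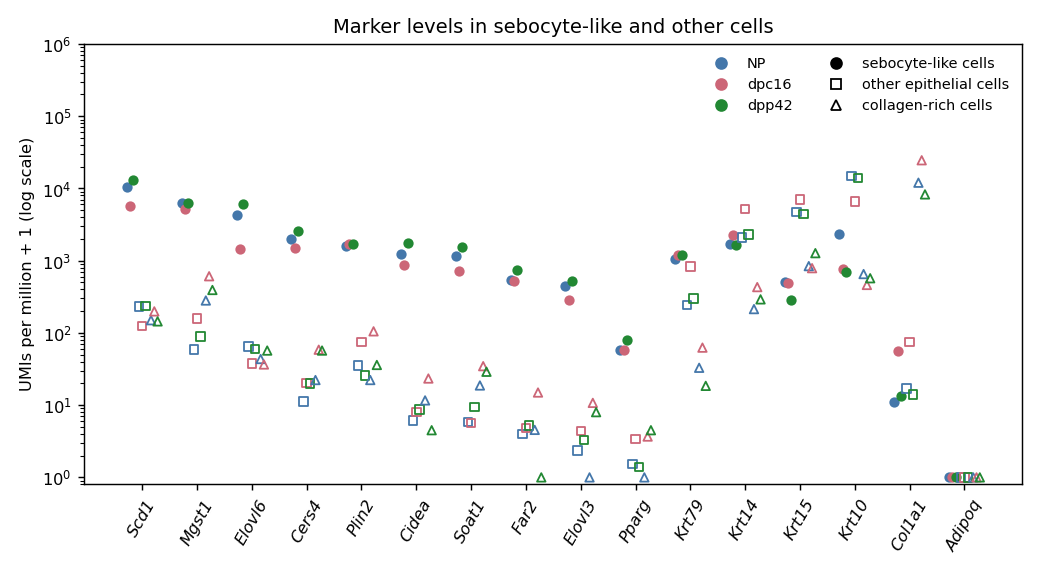
Level of 16 genes on a log axis, as CPM plus 1, in sebocyte-like cells (filled circles), other epithelial cells (open squares) and collagen-rich cells (open triangles) of NP (blue), dpc16 (red) and dpp42 (green). Filled circles lie far above the open symbols for Scd1 to Pparg, while Krt10 and Col1a1 are lower in the sebocyte-like cells than in the other epithelial and the collagen-rich cells respectively, and the adipocyte gene Adipoq is at 0.

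The first comparison asks how frequent these cells were at each stage. They were 7.99% of kept cells in NP (6.57 to 9.61%, exact Clopper-Pearson interval), 11.0% in dpc16 (10.0 to 12.1%) and 9.71% in dpp42 (8.01 to 11.6%). The ratio of shares was 1.38 (1.11 to 1.73) for dpc16 over NP. For dpp42 over NP it was 1.22 (0.917 to 1.61), an interval that holds 1. A rule that counts detected genes depends on depth, so each cell was also thinned to 1500 UMIs, which every kept cell held. The shares were then 3.88%, 7.06% and 4.63%, with 1.82 (1.34 to 2.52) for dpc16 over NP and 0.655 (0.474 to 0.889) for dpp42 over dpc16. Among sebocyte-like and other epithelial cells alone, the shares were 11.6%, 24.1% and 17.5%.

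The ratio depended on which genes the rule read. With all 3 of Psph, Cers4 and Ermp1 required and neither Bex1 nor Cyp1a1 read, the shares were 6.90%, 8.32% and 9.34%, and dpp42 stood above dpc16. With at least 4 of the 5 genes required they were 2.02%, 8.65% and 1.39%, and the dpc16 share was 4.29 times that of NP. The mitochondrial limit mattered as well: sebocyte-like cells had a median of 5.82%, 6.48% and 5.87% mitochondrial UMIs, against 3.38%, 3.67% and 4.20% in other epithelial cells. Without that limit the shares were 8.20%, 14.5% and 10.9%, and with a limit of 5% they were 2.89%, 3.27% and 4.54%. Just inside the rule stood cells with 3 of its genes, 77, 87 and 90 of them, and just outside cells with 2, numbering 76, 216 and 93. Scd1 had a median of 0.633%, 0.0233% and 0.755% of the UMIs of a cell with 3 genes, and 0.0428%, 0.0132% and 0.0312% with 2. In NP and dpp42 Scd1 thus stepped up between 2 and 3 genes. In dpc16 the step came later, the median being 0.554% in cells with 4 or 5.

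**Figure D2:**
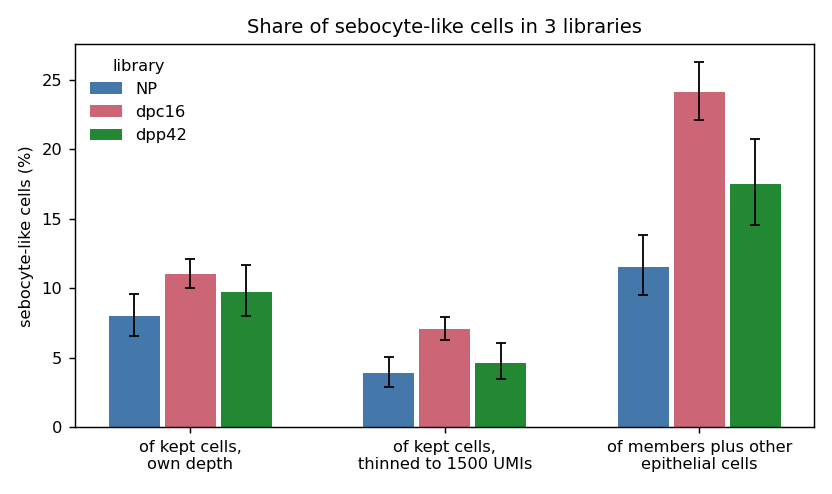
Share of sebocyte-like cells in percent in NP, dpc16 and dpp42, of kept cells at their own depth, of kept cells thinned to 1500 UMIs, and of sebocyte-like plus other epithelial cells. Bars are shares and lines exact 95% intervals of counting error, and dpc16 is highest in each set, with 11.0%, 7.06% and 24.1%.

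Bex1 and Cyp1a1 differed most among the genes of the rule. Bex1 had a UMI in 29 of 103 sebocyte-like cells in NP, 370 of 403 in dpc16 and 9 of 105 in dpp42. It stood at 67.3, 1194 and 21.0 CPM. Of the 29 NP cells, 19 held a single Bex1 UMI, whereas the 370 dpc16 cells had a median of 9 and up to 43. Cyp1a1 had a UMI in 16, 273 and 12 cells and stood at 32.9, 326 and 35.9 CPM. By contrast, Psph was found in 103, 400 and 105 cells and Cers4 in 102, 363 and 105, at 1274, 1392 and 1441 CPM and at 1972, 1486 and 2571 CPM. Ermp1 was found in 90, 346 and 101 cells, at 386, 330.2 and 469 CPM. All 5 genes together were found in 5 of 103, 227 of 403 and 2 of 105 cells.

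The dpc16 library carried some Bex1 RNA in every cell class. A Bex1 UMI was found in 6.15% of its other epithelial cells (median 4022 UMIs) and in 6.23% of its collagen-rich cells, against 91.8% of its sebocyte-like cells (median 8085 UMIs). In NP the same shares were 0.127%, 0% and 28.2%, where 0 of 101 collagen-rich cells has an exact upper bound of 3.59%. Cyp1a1 was found in 1.7% of other epithelial and 1.9% of collagen-rich cells of dpc16. The rule counts both genes, and of the dpc16 cells with exactly 2 rule genes, 48.6% held a Bex1 UMI.

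To compare cells of like Scd1 level, the sebocyte-like cells were parted by the Scd1 share of their UMIs into a low band (under 0.2%), a middle band and a high band (at least 0.8%). The low band held 26, 146 and 21 cells of NP, dpc16 and dpp42, the middle band 31, 138 and 30, and the high band 46, 119 and 54. A cell's Scd1 share had a median of 0.674% in NP, 0.385% in dpc16 and 0.863% in dpp42, with highest values of 5.04%, 3.85% and 3.82%. Bex1 was found in 93.8%, 98.6% and 81.5% of the low, middle and high dpc16 cells. In NP the shares were 46.2%, 22.6% and 21.7%, and in dpp42 0%, 13.3% and 9.26%. The dpc16 cells were thus the highest in each band. Bex1 and Cyp1a1 are genes of the rule, so these shares only describe the chosen cells of 1 library per stage. Cyp1a1 followed Scd1 in all libraries, being found in 42 of 146, 118 of 138 and 113 of 119 dpc16 cells from the low to the high band. The NP numbers were 0 of 26, 1 of 31 and 15 of 46, and those of dpp42 were 0 of 21, 0 of 30 and 12 of 54.

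**Figure D3:**
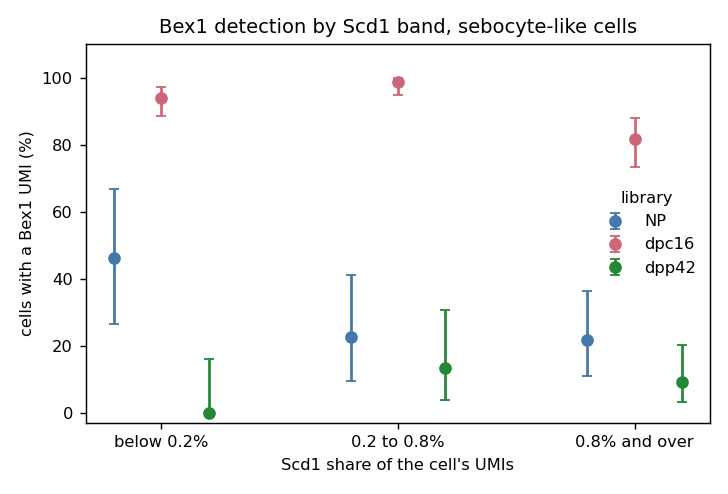
Percent of sebocyte-like cells with at least 1 Bex1 UMI in 3 bands of the Scd1 share of a cell's UMIs, for NP, dpc16 and dpp42, with exact 95% intervals of counting error. The dpc16 points lie between 81.5% and 98.6%, above the NP points (21.7% to 46.2%) and the dpp42 points (0% to 13.3%) in every band.

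The bands also show how the cells varied among themselves. Elovl6, which elongates palmitate, stood at 212, 3236 and 6797 CPM in the low, middle and high NP cells, at 146, 1498 and 3299.5 in dpc16, and at 310, 2121 and 8823 in dpp42. The basal keratin gene Krt5 ran the other way, at 768, 203 and 60.6 CPM in NP and 486, 85.8 and 83.6 in dpc16. In dpp42 it stood at 184, 99.7 and 89.5 CPM. Top2a, needed for chromosome separation in dividing cells, stood at 131, 15.6 and 2.88 CPM in the NP bands, at 108, 15.7 and 5.57 in those of dpc16, and at 252, 21.0 and 3.89 in those of dpp42. Top2a was thus highest in the low-Scd1 cells and Elovl6 in the high-Scd1 cells of each library. Krt5 was highest in the low-Scd1 cells too, but in NP a single cell held most of its UMIs, as given below. The NP order of Krt5 therefore rests on that cell.

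A small group carried another set of lipid genes. Elovl4, which makes very long fatty acids, the desaturase gene Scd3 and Awat1, a wax ester synthase, together reached 0.5% of UMIs in 6 cells of NP, 18 of dpc16 and 9 of dpp42. In these cells Elovl4 stood at 19907, 23520.0 and 24675 CPM, against 276, 47.6 and 171 in the remaining sebocyte-like cells. Far2 stood at 2070.1, 2496 and 1618 CPM there, against 457, 448 and 634, and Apoe was lower, at 2495, 2209.8 and 4864 CPM against 11910.3, 12971 and 11826. Bex1 was absent in the NP and dpp42 cells and stood at 17.9 CPM in the 18 dpc16 cells, against 1234 in the other dpc16 cells. The NP and dpp42 groups held only 35264 and 92724 UMIs, and Bex1 in the remaining cells stood at only 70.8 and 23.8 CPM. Its absence there is thus near the floor and shows no difference. Elovl4 chose these cells, so its own values only describe them.

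The second comparison asks what differed at gestation day 16. Genes were compared when they reached 50 CPM in either library and 20 UMIs over both. Of 2607 such genes, 623 (23.9%) differed between dpc16 and NP by at least 1.5 times with an interval that excluded 1, and such genes are said below to be higher or lower. Of all genes, 8.55% (223) were higher and 15.3% (400) lower in dpc16. The median log2 ratio was -0.11. Scaling by the median of ratios moved it to 0.04 and gave 349 higher and 269 lower, so a list's share of higher or lower genes is best read against the same share over all genes. In other epithelial cells the share was larger, 893 of 2759 genes (32.4%) passing the same rule, 11.1% higher and 21.3% lower.

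Several genes were far higher in dpc16. C3, the central complement component, was found in 6 of 103, 216 of 403 and 3 of 105 cells of NP, dpc16 and dpp42. It stood at 8.59, 192 and 3.71 CPM, 22.4 (10.2 to 61.2) times as high in dpc16 as in NP. Collagen-rich cells held 248, 219 and 322 CPM of C3, and other epithelial cells only 0.809, 2.13 and 2.31. Igfbp4, an IGF-binding protein, stood at 213, 784 and 319 CPM and was 3.68 (3.12 to 4.36) times as high in dpc16 as in NP. It was found in 64.1% of NP and 94.3% of dpc16 cells, and stood at 29.9, 80.0 and 40.1 CPM in other epithelial cells. Gpd1, which makes the glycerol backbone of triglycerides, stood at 28.6, 104 and 19.8 CPM, a ratio of 3.63 (2.31 to 6.01). Cav2, a caveolin, stood at 24.3, 136 and 16.1 CPM, and Aldh3a1, an aldehyde dehydrogenase, at 24.3, 124 and 26.0. In other epithelial cells Cav2 stood at 65.6, 93.2 and 78.3 CPM, above the sebocyte-like cells in NP and dpp42. Aldh3a1 stood at 29.4, 77.5 and 29.7 CPM there, and Gpd1 at 0.851 CPM or less. With the 3 Scd1 bands weighted equally, the log2 ratio was 4.24 for C3, 1.80 for Igfbp4, 2.31 for Gpd1 and 2.34 for Cav2, close to the 4.37, 1.87, 1.82 and 2.44 over all cells. With all 3 of Psph, Cers4 and Ermp1 required, it was 4.44, 1.86, 2.24 and 2.43. For Aldh3a1 it was 2.31 over all cells and only 1.09 under that rule, and collagen-rich cells held 177, 180.1 and 423 CPM of it. With a mitochondrial limit of 5%, which kept 29, 80 and 30 cells, C3 had a log2 ratio of 2.53 and Gpd1 one of 2.88.

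Of the 8 genes lowest in dpc16, some were low there in other epithelial cells too and some were hardly present in them. Cyp2g1, a cytochrome P450, stood at 1028 CPM in NP, 186 in dpc16 and 1929.96 in dpp42, Cbr1, a carbonyl reductase, at 366, 62.2 and 271, and Acaa1b, a peroxisomal thiolase, at 213, 48.4 and 230.3. Sccpdh, which encodes a putative dehydrogenase, stood at 113, 19.2 and 168 CPM. In other epithelial cells these 4 genes stayed at 28.5 CPM or less in each library. In contrast, Wdr89 stood at 751, 126 and 659.8 CPM in sebocyte-like cells and at 642, 122 and 664 in other epithelial cells. Nme2 and Phpt1 were likewise low in dpc16 in both, Nme2 at 114, 23.3 and 66.9 CPM in sebocyte-like and 49.9, 10.5 and 35.1 in other epithelial cells. Phpt1 stood at 155, 35.1 and 124 CPM, against 80.7, 22.6 and 72.5. The last of the 8, Clasrp, stood at 182, 44.5 and 149 CPM, against 81.7, 58.2 and 127.

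**Figure D4:**
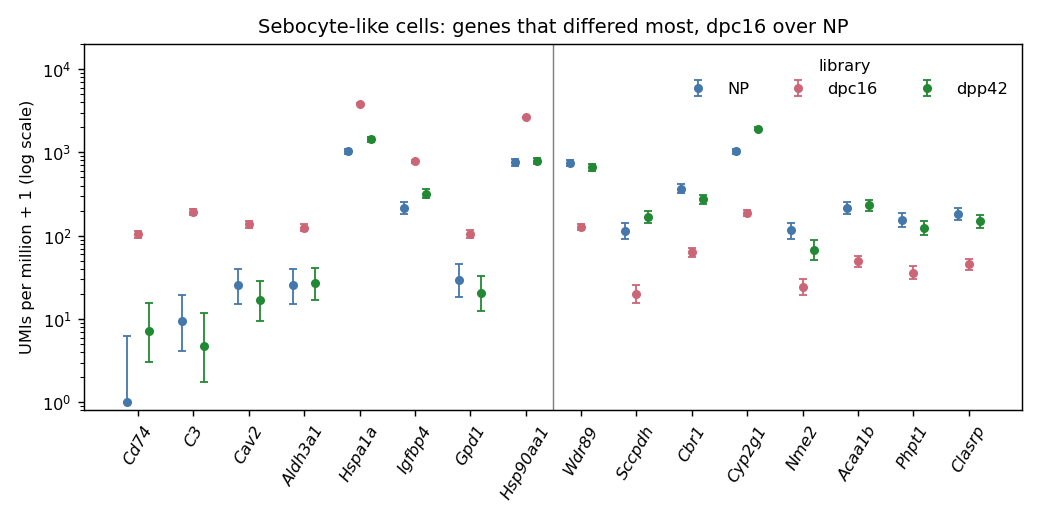
Level of 16 genes in sebocyte-like cells, as CPM plus 1 on a log axis, for NP, dpc16 and dpp42, with exact 95% Poisson intervals. Left of the line are the 8 genes highest in dpc16 over NP, and right of it the 8 lowest. The dpp42 points lie nearer NP than dpc16 for most genes, such as C3 at 8.59, 192 and 3.71 CPM.

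The lipid synthesis genes leaned down in dpc16. Of 25 measured sebaceous lipid genes, 4 were higher and 9 lower, beside 8.55% higher and 15.3% lower of all genes. Their median log2 ratio was -0.28, beside -0.11 over all genes. Genes of this list leaned down in other epithelial cells too, where 3 were higher and 6 lower of 11 measured, with a median of -0.67. The lower genes included Scd1, at 0.537 (0.523 to 0.551) times the NP level, Elovl6 at 0.339 (0.324 to 0.355) times, and the fatty acid synthesis genes Fasn, Acly and Acaca. Fasn stood at 637, 405 and 693 CPM in NP, dpc16 and dpp42, and Acly at 623, 365 and 679.6. Of 20 sterol synthesis genes, 0 were higher, 5 lower and 15 neither, beside 8.55% higher and 15.3% lower of all genes. In other epithelial cells 0 were higher and 1 lower of 11 sterol genes. Hmgcs1, the HMG-CoA synthase, stood at 1022, 635 and 1146 CPM, with a log2 ratio of -0.69. It fell under the 1.5-fold limit under the median of ratios (-0.56), with thinning before the rule (-0.41) and with the Scd1 bands weighted equally (-0.27). The mix of cells differed as well: the low-Scd1 band held 25.2% of NP, 36.2% of dpc16 and 20.0% of dpp42 cells. The dpc16 cells with only 3 rule genes had a median Scd1 share of 0.0233%, against 0.633% in NP, so the band shares depend on the rule. With all 3 of Psph, Cers4 and Ermp1 required, the log2 ratios of Fasn, Acly and Hmgcs1 were -0.47, -0.53 and -0.54. These are under the 1.5-fold limit, while Elovl6, Acaca and Scd1 stayed past it, at -1.35, -1.27 and -0.63. With the bands weighted equally, the log2 ratio of Elovl6 went from -1.56 to -1.05, and that of Acaca from -1.23 to -1.13. That of Fasn went from -0.65 to -0.13 and that of Acly from -0.77 to -0.29, both under the 1.5-fold limit. The bands are cut by Scd1 itself, so no such value is given for Scd1. With a mitochondrial limit of 5% the log2 ratio was -1.85 for Scd1, in place of -0.90, and -2.43 for Elovl6.

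Genes of lipid droplets and fatty acid uptake leaned up instead. Of 18 measured, 8 were higher and 2 lower in dpc16, beside 8.55% higher and 15.3% lower of all genes, with a median of 0.50. In other epithelial cells 4 were higher and 2 lower of 10, with a median of 0.33, so the lean was not seen in sebocyte-like cells alone. Lpl, which frees fatty acids from lipoproteins, stood at 228, 408 and 225 CPM in NP, dpc16 and dpp42, Angptl4, which restrains it, at 192, 512 and 149, and Mgll, which splits monoglycerides, at 558, 1202 and 791. Fabp4 rested on 1 UMI in NP and stood at 1.43, 83.7 and 7.43 CPM, a ratio of 58.5 (10.4 to 2319), but 237 of its 284 dpc16 UMIs lay in 1 cell. Fabp4 is also a gene of fat and vessel cells, and stood at 26.2 CPM in other epithelial and 30.6 in collagen-rich cells of dpc16. The 2 lower genes were the acyl-CoA ligases Acsl3 and Acsl4, Acsl4 at 504, 232 and 524 CPM. The lipid coat gene Plin2 differed by less than 1.5 times between any 2 libraries. Lpl turned its direction with a mitochondrial limit of 5%, with a log2 ratio of -0.22 in place of 0.84, and Mgll fell under the 1.5-fold limit, with 0.22 in place of 1.10.

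Among targets of the aryl hydrocarbon receptor, 3 genes were measured and all were higher in dpc16, beside 8.55% of all genes: Cyp1a1, which belongs to the rule and so supports nothing here, Aldh3a1 and Scin. When cells were thinned before the rule, Aldh3a1 had a log2 ratio of 0.56 in place of 2.31, under the 1.5-fold limit, and Scin one of 1.27 in place of 1.32. Scin, an actin-severing protein, stood at 70.1, 177 and 53.2 CPM. Cyp1b1, another known target, was too low to be measured in this comparison and stood at 44.4, 25.4 and 81.7 CPM, higher in dpp42 than in NP. When genes under 50 CPM were added, the median of the list turned to -0.14. In other epithelial cells 2 of 4 measured targets were higher.

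Stress genes were higher in dpc16 in both epithelial classes. Of 12 heat shock and chaperone genes, 7 were higher and 0 lower in dpc16, with a median log2 ratio of 1.02, and in other epithelial cells 10 of 12 were higher, with a median of 1.53. Hspa1a, an inducible chaperone, stood at 1025, 3839 and 1431 CPM in sebocyte-like cells and at 628, 3250.2 and 874 in other epithelial cells. Hsp90aa1, another chaperone, stood at 756, 2631 and 786 CPM, against 438, 1862 and 556. Of 15 immediate early genes, 6 were higher and 1 lower, against 12 and 0 of 17 in other epithelial cells. Fos, the exception, stood at 663, 349.98 and 556 CPM in the sebocyte-like cells, with 131 of its 463 NP UMIs in 1 cell and a log2 ratio of -0.50 in place of -0.92 without the richest cells. The part of the higher stress genes in the other differences was not tested. The metallothionein genes Mt1 and Mt2 were lower in dpc16, Mt1 at 1050.5, 280.1 and 588 CPM against 3041, 1588 and 2006 in other epithelial cells.

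**Figure D5:**
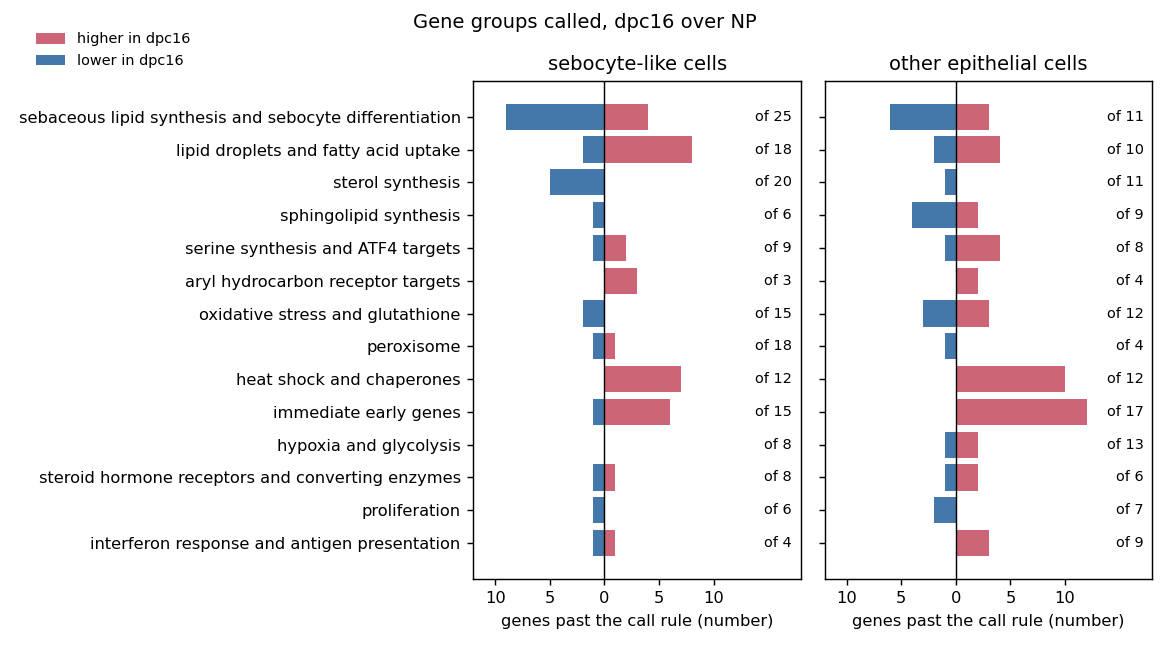
Number of genes higher (red, to the right) and lower (blue, to the left) in dpc16 than in NP, by gene group, in sebocyte-like cells and in other epithelial cells, with the number measured at the right. Of sebaceous lipid genes, 9 of 25 are lower and 4 higher in sebocyte-like cells, and 6 of 11 lower and 3 higher in other epithelial cells. Of lipid droplet genes, 8 of 18 and 4 of 10 are higher, with 2 lower in each class. Of heat shock genes, 7 and 10 of 12 are higher and 0 lower. Over all genes, 8.55% are higher and 15.3% lower in sebocyte-like cells, and 11.1% and 21.3% in other epithelial cells.

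Immune and fibroblast RNA moved with dpc16 too. Cd74, the invariant chain of antigen presentation, had no UMI in 103 NP cells and 349 UMIs in 43 of 403 dpc16 cells, 109 of them in 1 cell, so that dpc16 was at least 24.0-fold higher when NP is set to a floor of 3 counts in the library. Other epithelial cells held 69.9, 89.5 and 17.0 CPM of Cd74. The fibroblast genes Col1a1, Col1a2, Col3a1, Dcn and Sparc were all higher in dpc16, Col3a1 being found in 9 of 103 NP and 214 of 403 dpc16 cells at 15.7 and 108 CPM. In other epithelial cells Col3a1 stood at 29.9 and 125 CPM, a like difference. The part of free RNA or of doublets in these genes was not tested. Leaving out sebocyte-like cells above the 95th percentile of UMIs in their library kept 100, 347 and 102 cells, and 532 of the 623 genes differed in the same direction.

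The third comparison, of dpp42 with NP, gave fewer differences. Of 2638 genes, 259 (9.82%) passed, 126 higher (4.78%) and 133 lower (5.04%), with a median log2 ratio of 0.02. Other epithelial cells gave 128 of 2666 (4.80%), 2.25% higher and 2.55% lower. Both comparisons use the same NP cells, so their values are set side by side and not counted together.

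Lipid genes were, where they passed, higher in dpp42. Of 24 sebaceous lipid genes 4 were higher and 0 lower, with a median log2 ratio of 0.33: Scd3, Elovl4, Awat1 and Hsd3b6, a steroid-converting enzyme. Hsd3b6 stood at 88.7, 147 and 137 CPM in NP, dpc16 and dpp42. Elovl4 stood at 1267, 821 and 2983 CPM and turned to a log2 ratio of -2.03 when cells were thinned before the rule. Most of it lay in the 6 NP and 9 dpp42 cells described above, as did most of Scd3 and Awat1. Scd3 stood at 1418 and 1251 CPM in those NP and dpp42 cells, against 36.2 and 22.4 in the rest. Awat1 stood at 794 and 507 CPM there, against 10.6 and 29.4. The calls of Elovl4, Scd3 and Awat1 thus rest largely on the same few cells, which these genes chose. Msmo1 and Insig1, of the sterol pathway and its feedback, were higher as well, Msmo1 at 538, 303 and 907 CPM. Both fell under the 1.5-fold limit in other settings: Msmo1 from a log2 ratio of 0.75 to 0.05 with thinning before the rule and 0.30 with a mitochondrial limit of 5%, and Insig1 from 0.72 to 0.32 with that limit and 0.13 without any. Hsd3b6 went from 0.63 to 0.22 with the Scd1 bands weighted equally. Outside the lists, Ldah, a lipid droplet hydrolase, stood at 98.8, 64.0 and 246 CPM, and the membrane progestin receptor gene Paqr7 at 484, 395 and 1094. These 2 stayed past the 1.5-fold limit in all 19 other settings, with lowest log2 ratios of 0.81 and 0.80. Acox3, a peroxisomal oxidase, was higher in both later libraries, at 38.6, 124 and 119 CPM, but its log2 ratio of dpp42 over NP went from 1.60 to 0.39 with thinning before the rule. Cyp17a1, an enzyme of androgen synthesis, stood at 48.7, 115 and 100.3 CPM, and was found in 10 of 103, 120 of 403 and 31 of 105 cells. Its log2 ratio of dpp42 over NP was 1.03 and went as low as 0.28 in the other settings, under the 1.5-fold limit. Serpina3j, Borcs7 and Calml3 completed the 8 highest, at 2.51, 2.40 and 2.35 times the NP level. Each fell under the limit in at least 1 setting, Serpina3j to a log2 ratio of 0.57 with thinning, Borcs7 to 0.13 with at least 4 rule genes and Calml3 to 0.14 with a mitochondrial limit of 5%.

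Steroid and peptide hormone genes differed one by one. Akr1c18, which inactivates progesterone, stood at 3950.05 CPM in NP, 3317 in dpc16 and 1779 in dpp42, 0.450 (0.422 to 0.480) times the NP level in dpp42. Its level in other epithelial cells was 49.6, 409.7 and 27.4 CPM. Oxtr, the oxytocin receptor gene, stood at 58.7, 70.2 and 14.9 CPM and was 0.253 (0.121 to 0.491) times as high in dpp42 as in NP. With a mitochondrial limit of 5% its log2 ratio went from -1.94 to -0.23, under the 1.5-fold limit. Prlr, the prolactin receptor gene, stood at 296, 299 and 311 CPM and passed in no comparison. Of 8 measured genes of the steroid list, 1 was higher and 1 lower both in dpc16 and in dpp42, against NP.

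Keratinocyte genes were lower in dpp42, and for most of those named here a few RNA-rich cells set the size or the direction. Of 6 spinous genes 4 were lower, with a median log2 ratio of -1.39, and of 6 basal genes 3, with a median of -0.57, whereas in other epithelial cells 0 of 6 and 0 of 7 were. The basal genes Krt5 and Krt15 stood at 262, 236 and 104 CPM and at 514, 486 and 287, with 108 of 183 and 161 of 359 NP UMIs in 1 cell each. Without the richest cell of each gene and library, their log2 ratios of dpp42 over NP went from -1.33 and -0.84 to -0.17 and -0.08. Krt10, a spinous keratin, stood at 2356, 773 and 688 CPM, and 1 NP cell held 937 of its 1646 NP UMIs. Its log2 ratio of -1.77 was -1.31 without the richest cells, that of Krtdap went from -2.06 to -1.34, and that of Krt1 from -2.11 to -0.53. When cells above the 95th percentile of UMIs were left out, all 3 turned, to 1.72, 1.44 and 1.14. The basal gene Col17a1, which anchors cells to the basement membrane, had a log2 ratio of -1.38 over all cells. It was -1.08 without the richest cells and -0.95 without cells above that percentile. With at least 4 rule genes, which kept 26 NP and 15 dpp42 cells, it turned to 1.04. Single cells decided 2 of the 8 lowest named genes as well. Of 150 Serpinb6d UMIs in NP, 142 lay in 1 cell, and of 278 Ccl21a UMIs 267 did. Without the richest cells the log2 ratio of Serpinb6d went from -4.36 to -0.60, and that of Ccl21a turned from -3.60 to 0.88. Wbp5, a small protein of the same X-linked family as Bex1, stood at 424, 994 and 163 CPM, 0.386 (0.312 to 0.475) times the NP level in dpp42. With a mitochondrial limit of 5% its log2 ratio went from -1.37 to -0.41, under the 1.5-fold limit. Csrp1, Urah, Gng12, Dctn3 and Lgals3 stood at 0.296, 0.333, 0.379, 0.414 and 0.422 times the NP level, and for Lgals3 103 of 285 NP UMIs lay in 1 cell.

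Wbp5 was also higher in dpc16, 2.35 (2.08 to 2.65) times NP, which prompted a look at the other family members, chosen after their values were seen. Its log2 ratio of dpc16 over NP was 1.23 and went as low as 0.43 in the other settings, under the 1.5-fold limit. Ngfrap1 (Bex3) stood at 24.3, 62.2 and 14.9 CPM and was higher in dpc16. Tceal8 stood at 54.4, 50.1 and 53.2 CPM and differed by less than 1.5 times. Bex2, Bex4 and Bex6 held at most 3 UMIs in any library. Wbp5 (chromosome X, 136245079 to 136247139, plus strand) lies near Bex1. Within each library, cells with a Bex1 UMI had more Wbp5 than those without, 5.06 (3.98 to 6.46) times in NP, 6.58 (4.84 to 9.19) times in dpc16 and 2.82 (1.82 to 4.26) times in dpp42. In dpc16, the 370 cells with a Bex1 UMI also had 207 CPM of C3 against 7.86 in the 33 without. The second value rests on 2 UMIs, and the ratio was 26.4 (7.27 to 218). Of these 33 cells, 16 were Elovl4-rich, and C3 in the rest was not taken apart. Elovl4 ran the other way, with 59.3 CPM against 10217, but 2554 of the 2599 UMIs behind the second value lay in 16 of the 18 Elovl4-rich cells described above. In the other 17 cells without Bex1 it stood at 293 CPM. Cells without Bex1 had to hold 3 of the other 4 rule genes, so the 2 sets also differ by the rule.

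Between dpp42 and dpc16, 749 of 2624 genes (28.5%) passed, 488 higher (18.6%) and 261 lower (9.95%) in dpp42, beside 20.1% higher and 12.8% lower of 2769 genes in other epithelial cells. Under the median of ratios these were 327 and 396, with a median log2 ratio of -0.02 in place of 0.13. Of 24 sebaceous lipid genes 10 were higher and 2 lower, and of 20 sterol genes 8 higher and 0 lower. Of 12 heat shock genes 0 were higher and 7 lower. Cyp2g1 and Sccpdh were 10.4 (9.45 to 11.4) and 8.78 (6.49 to 12.0) times as high in dpp42, and Bhlhe41, a clock-linked transcription factor gene, 6.00 (4.57 to 7.91) times. C3 stood at 0.0193 (0.00397 to 0.0567) times its dpc16 level, resting on 3 UMIs in dpp42, and Cav2 at 0.119 (0.0627 to 0.205) times.

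Few cells held RNA of several proliferation genes once depth was made even. After thinning to 1500 UMIs, at least 3 genes of a proliferation list were found in 10 of 103 NP, 56 of 403 dpc16 and 8 of 105 dpp42 cells, or 9.71% (4.75 to 17.1%), 13.9% (10.7 to 17.7%) and 7.62% (3.35 to 14.5%). The intervals overlap, but no ratio of these shares was taken, so no conclusion on a difference is drawn. The same shares in other epithelial cells were 14.5%, 15.1% and 14.1%. At their own depth they were 62.1%, 66.7% and 64.8% in sebocyte-like cells.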

How the data were processed

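Abdominal skin dermis was profiled in 3 libraries of 10x Chromium version 2 chemistry, 1 per stage, grouped by their labels. The values are whole UMI counts for each gene in each barcode, deposited by the authors without normalization. Cell Ranger 2.2.0 and the mm10 build (GRCm38) are named per the submitters' processing notes. Which annotation release and cell-calling settings were used is not given in the sources used here. Of 28693 gene identifiers, 28416 matched GENCODE release M21.

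UMI counts were summed per library over the sebocyte-like cells and divided by their total, per 1000000. CPM has exact Poisson intervals, ratios of CPM exact conditional binomial intervals and shares exact Clopper-Pearson intervals, all at 95%. Genes were measured from 50 CPM in 1 library and 20 UMIs over both. A ratio of 1.5 either way whose interval leaves out 1 was called. For log2 ratios 0.5 UMI was added to each sum. A library at 0 counts was given a floor of 3 counts. For gene groups, 15 pathway lists and 22 marker lists were used. The cells, the lists and the rules were chosen with earlier results of these data known.

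Named genes were those with the 8 largest and the 8 smallest called ratios to NP, and the 5 each way of dpp42 to dpc16, from 100 CPM in 1 library. Mitochondrial, ribosomal, haemoglobin, predicted and rule genes were not ranked in these comparisons. Neither were genes under 0.2 times their CPM in another cell class, which were 28, 28 and 23 of the called genes in the comparisons of dpc16 with NP, dpp42 with NP and dpp42 with dpc16. The rule added 20 genes over other epithelial cells and the members of lists. Close copies such as Acaa1a and Acaa1b, Hspa1a and Hspa1b, Scd1 and Scd3, Ccl21a and the Serpina3 and Akr1c families can share reads, so their values are uncertain. Some genes that the rule names are not reported here. No doublet caller was run. As an alternative, cells above the 95th percentile of UMIs were left out.

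The steps were tested on simulated counts at these depths. In the same order of comparisons, with 2419, 2597 and 2426 genes, the true ratio lay in the interval for 95.6, 94.8 and 94.8% of genes. Of 2-fold changes 100, 94.7 and 98.9% were called, and of unchanged genes 0.946, 2.50 and 0.988%. Counts were drawn from the model behind the intervals, so differences between cells or mice were not simulated. Alternatives covered the rule genes, the mitochondrial, collagen, envelope and UMI limits, thinning, weighting of cells and bands, scaling and the CPM minimum. Python 3.11.15, numpy 2.4.6, scipy 1.17.1, pandas 2.3.3 and matplotlib 3.10.9 were used.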

Additional observations from a re-analysis of the deposited data

Results flagged for a closer look

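Barcodes left out for over 10% mitochondrial UMIs were checked against the rest of the rule. It was met by 6 of 40 such barcodes in NP (15.0%), by 191 of 458 in dpc16, or 41.7% (37.1 to 46.4%), and by 25 of 112 in dpp42, or 22.3% (15.0 to 31.2%). These cells are in no value of the comparisons above other than the shares given without that limit.

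Calml3, a calmodulin-like gene of epithelium, differed in opposite directions in the 2 epithelial classes. Its log2 ratio of dpc16 over NP was -0.84 in sebocyte-like cells and 0.66 in other epithelial cells. Ccl21a, a chemokine gene of lymphatic vessels, had log2 ratios of -0.70 for dpc16 over NP and -3.60 for dpp42 over NP in sebocyte-like cells, against 2.26 and 1.98 in other epithelial cells. In NP, 1 sebocyte-like cell held 267 of 278 Ccl21a UMIs. With 1 library per stage, the differences between the classes were not tested.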

How the results depend on the processing

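The ratios of shares depended on the rule. For dpc16 over NP the ratio of 1.38 became 4.29 with at least 4 rule genes, 4.32, 4.60 and 3.23 with 3 of 4 genes when Psph, Cers4 or Ermp1 was not used, 1.82 after thinning and 1.76 without a mitochondrial limit. For dpp42 over NP the ratio of 1.22 became 0.688 with at least 4 genes, and 0.688, 0.662 and 0.581 without Psph, Cers4 or Ermp1. For dpp42 over dpc16 the ratio of 0.880 became 0.160 with at least 4 genes, 0.159, 0.144 and 0.180 without Psph, Cers4 or Ermp1, 0.655 after thinning, 1.39 with a mitochondrial limit of 5% and 1.12 with all 3 of Psph, Cers4 and Ermp1. When Psph, Cers4 or Ermp1 was not used, only cells with Bex1 or Cyp1a1 met the rule. Without a CPM minimum 1420 genes passed for dpc16 over NP, 469 for dpp42 over NP and 1701 for dpp42 over dpc16, as more genes were tested. With a mitochondrial limit of 5%, 250 genes were at least 2-fold higher than in other epithelial cells in each library in place of 425.

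Of 1862 log2 ratios of named genes under an alternative, 1299 stayed within the counting interval of the reported ratio, 528 moved past it and 35 turned. For dpp42 over NP, Ccl21a turned to 1.01 with at least 2 rule genes, 0.30 with at least 4, 0.93 after thinning, 0.30, 0.35 and 1.34 without Psph, Cers4 or Ermp1, and 0.88 without the richest cells. Krt15 turned to 1.40 with at least 4 rule genes, 1.40, 1.23 and 1.11 without Psph, Cers4 or Ermp1, 0.075 without cells above the 95th percentile of UMIs and 0.0093 with cells weighted equally. Col17a1 turned to 1.04 with at least 4 and 1.04, 0.80 and 0.15 without those 3 genes. Krt5 turned to 0.061 with at least 4, 0.061 and 0.040 without Psph or Cers4 and 0.027 without cells above the 95th percentile. Krt10 turned to 1.26 after thinning, 1.72 without cells above that percentile and 0.094 without cells rich in Krt1 and Krt10. Krt1 turned to 0.50 after thinning and 1.14 without cells above that percentile, and Krtdap to 0.99 and 1.44 in these settings, 0.043 without Ermp1 and 0.44 without cells rich in Krt1 and Krt10. Mt1 turned to 0.032 with at least 4 and without Psph, and Elovl4 to -2.03 after thinning. Ccl21a for dpp42 over dpc16 turned to 0.26 with at least 2 rule genes, and Lpl for dpc16 over NP to -0.22 with a mitochondrial limit of 5%. Of 815 list medians 3 turned: aryl hydrocarbon receptor targets for dpc16 over NP to -0.14 without a CPM minimum, and proliferation for dpp42 over dpc16 to 0.049 after thinning and 0.075 with Scd1 bands weighted equally. Beyond what these constructions show, the cause was not tested.

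The alternatives without a mitochondrial limit, with all 3 of Psph, Cers4 and Ermp1, without cells rich in Krt1 and Krt10 and with weighted Scd1 bands, and all those for the comparison with other epithelial cells, were chosen after seeing the data. No paired analysis was possible because each stage was 1 library with no shared numbers, and there were no replicates to leave out. Depth limits NP and dpp42, with 103 and 105 cells.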
